A study of Mus musculus with 2 samples.

Results

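The 8 genes *Hmgcs1*, *Idi1*, *Fdps*, *Fdft1*, *Sqle*, *Cyp51*, *Msmo1* and *Dhcr7* encode enzymes of cholesterol synthesis and were taken by gene symbol from the 32285 genes counted in every cell of adult mouse striatum. All 8 symbols were found, once each, in both count matrices. The matrices hold 2 10x Genomics single-cell libraries, replicates 1 and 2 of a single group of untreated mice with no transgene or allele named. The labels give an age of 8 to 10 weeks and name the strain as C57/Bl6J in one field and C57BL/6NTac in another. The tissue was dissociated with pronase, filtered and cleared of myelin debris, and the cells are labelled as enriched for glia. Neither library is tied by its label to a separate animal. The main tests take out the mean difference between the libraries. A p-value there measures only how far differences between groups of cells vary from library to library, which may be technical.

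Cholesterol synthesis starts from acetyl-CoA in the mevalonate pathway, passes through isoprenoid diphosphates to the linear hydrocarbon squalene, and ends with a long series of steps that oxidise, demethylate and reduce the sterol ring. The blood-brain barrier keeps out plasma lipoproteins, so that the brain makes its own cholesterol, most of which lies in the myelin that oligodendrocytes wrap around axons. Astrocytes make cholesterol too and export it on apolipoprotein E particles, and transcription of the pathway is driven by the sterol regulatory element binding proteins when membrane sterol is low.

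Of the 8 enzymes, HMG-CoA synthase 1 (*Hmgcs1*) acts at the start of the mevalonate pathway, isopentenyl diphosphate isomerase (*Idi1*) interconverts the isoprene units, and farnesyl diphosphate synthase (*Fdps*) joins them. Squalene synthase (*Fdft1*) commits farnesyl diphosphate to sterols and squalene epoxidase (*Sqle*) oxidises squalene before the ring closes. Lanosterol demethylase (*Cyp51*) and methylsterol monooxygenase (*Msmo1*) act in the removal of methyl groups from the ring, and 7-dehydrocholesterol reductase (*Dhcr7*) reduces a ring double bond at the end of the route.

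In the GRCm38 annotation matched by gene identifier, 2 members lie on chromosome 13, *Hmgcs1* (ENSMUSG00000093930, 119690379 to 119708260, plus strand) and *Idi1* (ENSMUSG00000058258, 8885501 to 8892451, plus strand). The other 6 lie on separate chromosomes. *Fdps* (ENSMUSG00000059743) spans 89093588 to 89101959 on chromosome 3, *Cyp51* (ENSMUSG00000001467) spans 4081145 to 4104746 on chromosome 5, and *Dhcr7* (ENSMUSG00000058454) spans 143823145 to 143848410 on chromosome 7. *Msmo1* (ENSMUSG00000031604) spans 64718139 to 64733792 on chromosome 8, *Fdft1* (ENSMUSG00000021273) spans 63145150 to 63179578 on chromosome 14, and *Sqle* (ENSMUSG00000022351) spans 59315077 to 59331192 on chromosome 15.

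The promoters of 2 members are shown, *Hmgcs1* with and *Cyp51* without the letters TCACNCCAC, the only form of the sterol regulatory element searched. RefSeq promoters of GRCm38.p6 were found for 5 of the 8 members, in 7 windows of 250 bases ahead of a transcription start, and *Sqle*, *Fdps* and *Fdft1* had none. Motifs searched on both strands were TCACNCCAC for the sterol regulatory element, the CCAAT box and the GC box GGGCGG. Capitals mark their matches in the bases shown. The *Cyp51* sequence shows 201 of the 250 bases, and the CCAAT box from 29 to 25 bases ahead of its RefSeq start lies outside them.

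*Hmgcs1* promoter, chr13:119690101-119690350, plus strand: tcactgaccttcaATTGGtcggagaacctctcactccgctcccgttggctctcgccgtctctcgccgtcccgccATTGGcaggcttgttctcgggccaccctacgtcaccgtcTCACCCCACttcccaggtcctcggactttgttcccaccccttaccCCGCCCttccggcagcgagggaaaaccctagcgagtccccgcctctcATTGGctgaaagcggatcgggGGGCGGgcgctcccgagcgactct

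*Cyp51* promoter, chr5:4104747-4104947, minus strand: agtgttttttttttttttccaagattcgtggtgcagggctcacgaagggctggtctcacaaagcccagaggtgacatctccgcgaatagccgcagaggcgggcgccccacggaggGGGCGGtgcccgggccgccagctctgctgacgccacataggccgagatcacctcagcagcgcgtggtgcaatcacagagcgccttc

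The *Hmgcs1* window held 1 match to the sterol element letters, from 137 to 129 bases ahead of the start, with 3 CCAAT boxes and 2 GC boxes. The sterol element letters occurred in 346 of all 32851 windows (1.05%) and in none of the other member windows. A CCAAT box occurred in 5 of the 7 member windows and in 33.8% of all windows, and a GC box in 6 of the 7 and in 32.7% of all windows. These letters are a description of the sequence and no binding was measured. Other forms of the sterol regulatory element were not searched, so that a window without these letters may still hold one.

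Library 1 held 6978 barcodes and 44597660 unique molecular identifiers (UMIs, which count each captured mRNA once) and library 2 held 5437 barcodes and 37982720 UMIs, with medians of 3852 and 5375 per barcode. The libraries shared 9 barcode sequences. After cells with few detected genes and called doublets were removed, 6817 and 5206 cells were clustered without the 8 members, the related genes described here or *Crym*. Clusters were named from marker genes, and a name ends in "-like" because it rests on those markers alone. Of 12 clusters, 2 with oligodendrocyte markers (1130 and 1095 cells in libraries 1 and 2) and 1 with astrocyte markers (1304 and 978 cells) are the classes of main interest here. All 8 oligodendrocyte markers and all 9 astrocyte markers were raised at least 2-fold in their class. The other classes were oligodendrocyte precursor (OPC)-like, neuroblast-like, neuron-like, microglia-like, macrophage-like, endothelial-like, mural-like and erythroid-like, the last with 86 and 11 cells and left out of the tests. The neuroblast-like class was mixed, since at a finer resolution 469 of its 1667 cells kept that name, 149 were ependymal-like and 1049 were left without a name. Neuron-like cells made up 5.65% and 5.01% of the cells. Median UMIs per cell were 11091 and 12210 in oligodendrocyte-like cells but 1746 and 2781.5 in astrocyte-like cells.

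**Figure D1:**
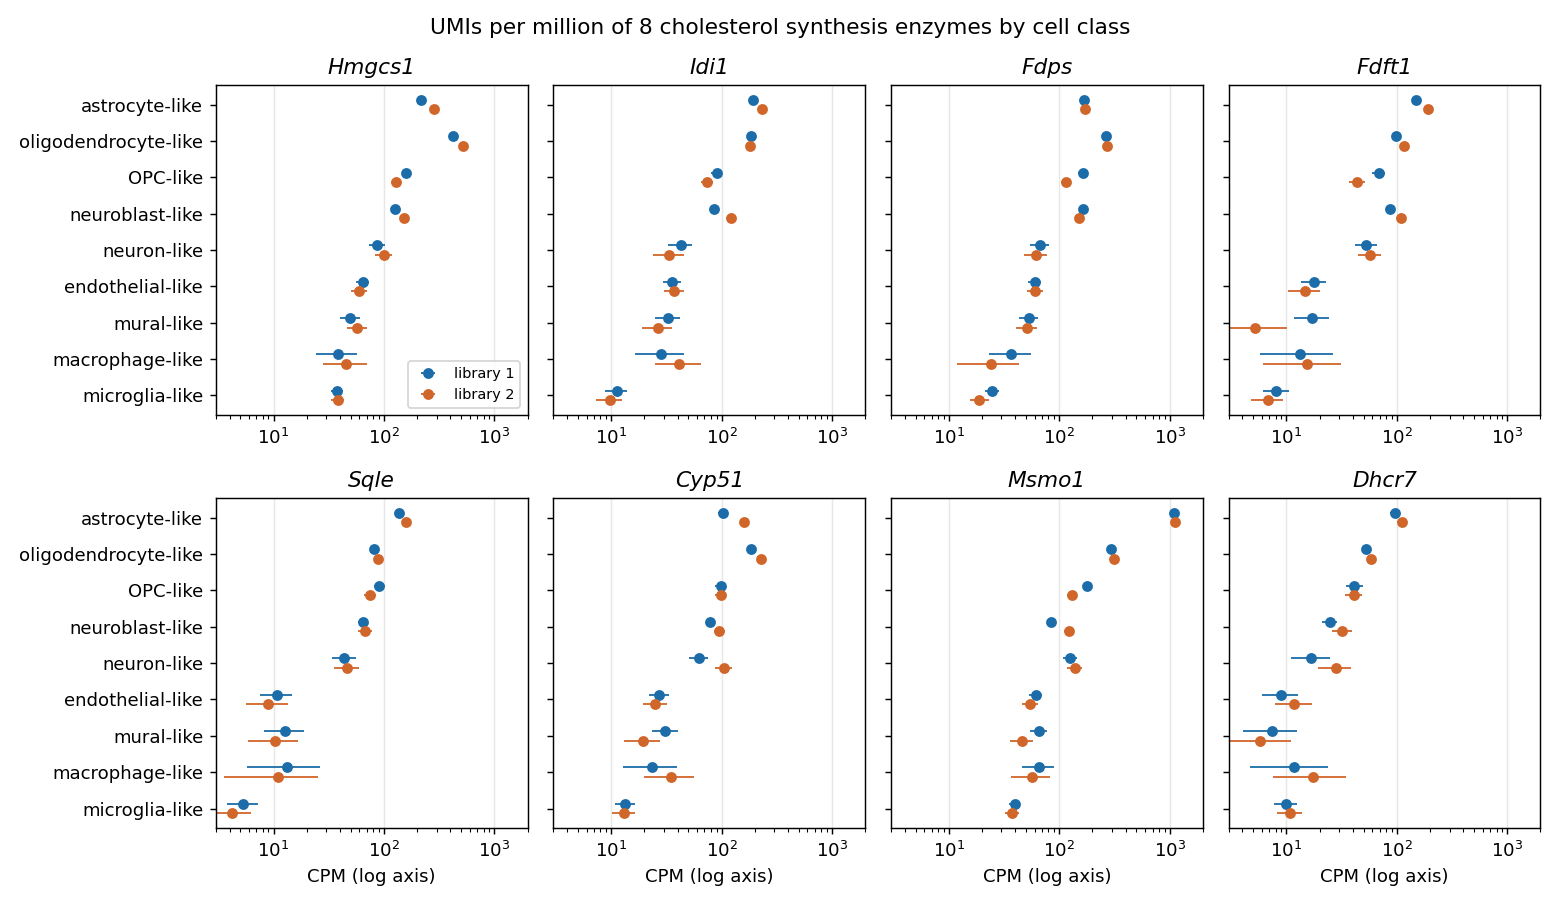
Level of each of the 8 enzymes (x axis, CPM, the UMIs of the gene scaled by all UMIs of the class, log axis) in 9 cell classes (y axis), with a point per library and a bar for its 95% Poisson interval. By the mean of both libraries, astrocyte-like and oligodendrocyte-like cells hold the 2 highest levels in every panel and microglia-like cells the lowest in all but *Dhcr7*, while single libraries can cross, as OPC-like library 1 does for *Sqle* (91.1 CPM against 80.5 and 87.5 in oligodendrocyte-like cells).

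The 8 enzymes were highest in astrocyte-like and oligodendrocyte-like cells, and by the mean of both libraries these 2 classes held the first and second rank for every member. Levels are CPM, the UMIs of a gene per 1000000 UMIs summed over the cells of a class and library, with the mean ± SD of both libraries (n = 2). The oligodendrocyte-like class ranked first for *Hmgcs1*, *Fdps* and *Cyp51*. Astrocyte-like cells ranked first for *Idi1*, *Fdft1*, *Sqle*, *Msmo1* and *Dhcr7*.

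Among the enzymes ahead of squalene, *Hmgcs1* had 426 and 522 CPM in oligodendrocyte-like cells of libraries 1 and 2 (474 ± 67.4) and 218 and 282 CPM in astrocyte-like cells (250 ± 45.2). OPC-like and neuroblast-like cells followed at 144 and 140 CPM, with overlapping libraries, and microglia-like cells were lowest of the 9 classes tested at 38.0 CPM. The erythroid-like cells, not tested, had 16.8 and 27.2 CPM from 12 and 2 UMIs. The isomerase *Idi1* had 194 and 233 CPM in astrocyte-like cells (214 ± 27.8) against 185 and 183 in oligodendrocyte-like cells (184 ± 1.70), so that both libraries of the former lay above both of the latter. For *Fdps* the order was the opposite, with 264 and 270 CPM in oligodendrocyte-like (267 ± 3.95) and 167 and 172 CPM in astrocyte-like cells (169 ± 3.42), ahead of 158 CPM in neuroblast-like and 139 CPM in OPC-like cells.

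For the pair that makes and oxidises squalene, astrocyte-like cells were highest in both libraries. *Fdft1* had 149 and 191 CPM there (170 ± 30.0) and 97.5 and 117 CPM in oligodendrocyte-like cells (107 ± 13.9), which overlapped with neuroblast-like cells at 97.8 CPM. *Sqle* had 138 and 158 CPM in astrocyte-like cells (148 ± 13.7), while oligodendrocyte-like (84.0 ± 4.96) and OPC-like cells (83.0 CPM) overlapped. Both genes fell to single-digit CPM in microglia-like cells, 7.43 for *Fdft1* and 4.75 for *Sqle*.

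The enzymes of the sterol ring split between the classes. *Cyp51* had 185 and 225 CPM in oligodendrocyte-like cells (205 ± 28.5) and 103 and 159 CPM in astrocyte-like cells (131 ± 40.2), and the libraries of the 2 classes did not overlap. *Msmo1* went the other way, with 1097 and 1112 CPM in astrocyte-like cells against 295 and 316 CPM in oligodendrocyte-like cells (305 ± 14.6), ratios of 3.72 in library 1 and 3.53 in library 2. The classes stood well apart, since the lowest astrocyte-like library exceeded the highest oligodendrocyte-like library. *Dhcr7* had 96.0 and 110 CPM in astrocyte-like cells (103 ± 10.1) and 52.5 and 58.1 CPM in oligodendrocyte-like cells (55.3 ± 3.94). Its lowest mean among the 9 classes tested was in mural-like cells at 6.63 CPM. That value rests on 14 and 9 UMIs, and its Poisson intervals overlapped those of microglia-like and endothelial-like cells.

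The share of cells with at least 1 UMI was compared after each cell was thinned to 1000 UMIs, since depth differed between classes and a deeper cell shows more genes. At that depth 77.8% of 964 astrocyte-like cells of library 1 (exact binomial 95% interval 75.0 to 80.4%) and 78.9% of 875 of library 2 (76.0 to 81.5%) held a UMI of any of the 8. In oligodendrocyte-like cells the shares were 61.7% (58.7 to 64.6%) and 72.5% (69.7 to 75.1%), below both astrocyte libraries. Microglia-like cells, with median depths of 6930 and 5504 UMIs, had 14.9% and 12.9%. The few erythroid-like cells had 9.52% (8 of 84 cells) and 9.09% (1 of 11 cells), and the part of free RNA in these low shares was not tested. OPC-like cells had 44.1% and neuron-like cells 35.4% on average. Without thinning the averages were 86.2% in astrocyte-like, 95.1% in oligodendrocyte-like and 53.5% in microglia-like cells, so that the order of the first 2 turned with depth. *Msmo1* alone was found in 54.1% ± 0.528 of thinned astrocyte-like cells, 25.0% of oligodendrocyte-like and 3.96% of microglia-like cells. The share with any of the 8 was not counted without *Msmo1*. *Hmgcs1* was found in 15.8% and 19.3% of thinned astrocyte-like cells and in 20.1% and 29.7% of oligodendrocyte-like cells, against 3.61% and 2.996% of microglia-like cells. These intervals cover counting error only. Cells with fewer than 1000 UMIs were left out of the thinned shares, 340 and 103 of them astrocyte-like and 53 and 9 oligodendrocyte-like.

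All 8 enzymes were higher in astrocyte-like cells than in the mean of the other 8 classes, by log2 fold changes from 1.17 for *Fdps* (SE 0.11) to 3.55 for *Msmo1* (SE 0.11). All 8 were likewise higher in oligodendrocyte-like cells than in the mean of the others, from 1.94 for *Dhcr7* (SE 0.11) to 2.996 for *Hmgcs1* (SE 0.10). The first comparison called 26.7% of 15537 genes higher and 26.5% lower, and the second called 34.9% higher and 23.8% lower, at a Benjamini-Hochberg adjusted p under 0.05 over all genes in the quasi-likelihood test of edgeR. The largest adjusted p of a member in that edgeR test was 1.5e-06 for astrocyte-like and 5.5e-09 for oligodendrocyte-like cells. The median member lay at 2.26 in the astrocyte comparison and 2.35 in the oligodendrocyte comparison, beside medians of -0.17 and -0.04 over all genes tested. With library sizes alone the split of calls in oligodendrocyte-like cells went from 5425 higher and 3694 lower to 3065 and 6239, with DESeq2 to 4091 and 5786, and all 8 members were still called higher. The 2 comparisons share their libraries, since each class is part of the mean that the other was set against.

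Against neuron-like cells alone, all 8 were higher in astrocyte-like cells. *Msmo1* had 126 and 138 CPM in neuron-like cells, and the log2 fold change was 3.34 (SE 0.21, adjusted p = 5.2e-09 in the Benjamini-Hochberg adjusted quasi-likelihood test of edgeR). The smallest difference was that of *Cyp51*, with 62.0 and 105 CPM in neuron-like cells and a log2 fold change of 0.94 (SE 0.23, adjusted p = 0.0027 in the same test). The libraries of *Cyp51* overlapped on the CPM scale, since 105 CPM in neuron-like cells of library 2 exceeded 103 CPM in astrocyte-like cells of library 1. This comparison called 27.1% of genes higher and 23.2% lower, and with library sizes alone its 4217 higher and 3601 lower calls became 3122 and 4666. The neuron-like class carried astrocyte markers at a summed 2067 and 771 CPM, beside 19678 and 21211 CPM in astrocyte-like cells, and a median mitochondrial share of 10.5% and 13.9%. Their part in the result was not tested.

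**Figure D2:**
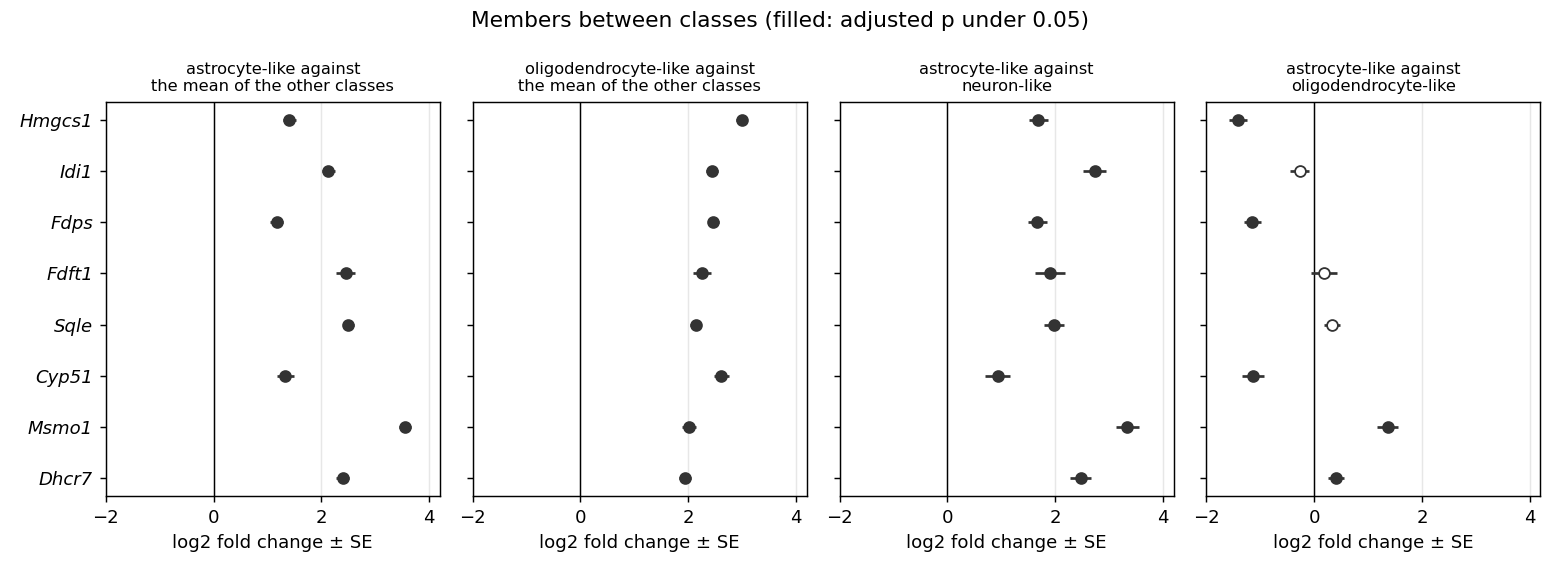
Log2 fold change ± SE from edgeR (x axis) of each member (y axis) in 4 comparisons of cell classes, with filled points at an adjusted p under 0.05. All points of the first 3 panels are filled and to the right of 0, while in the panel of astrocyte-like against oligodendrocyte-like cells *Hmgcs1*, *Fdps* and *Cyp51* lie to the left and *Msmo1* and *Dhcr7* to the right.

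Set directly against each other, astrocyte-like and oligodendrocyte-like cells did not differ in one direction. *Msmo1* was higher in astrocyte-like cells, with a log2 fold change of 1.36 (SE 0.19, adjusted p = 1.1e-05), and so was *Dhcr7* at 0.41 (SE 0.15, adjusted p = 0.025), both in the Benjamini-Hochberg adjusted quasi-likelihood test of edgeR. *Hmgcs1* was lower, at -1.41 (SE 0.17, adjusted p = 1.6e-06), as were *Fdps* at -1.15 (SE 0.16, adjusted p = 9.1e-06) and *Cyp51* at -1.14 (SE 0.21, adjusted p = 0.00016) in the same edgeR test. Thus 2 members were called higher and 3 lower, which is near the share over all genes (25.5% higher and 32.5% lower). *Idi1* (-0.27, SE 0.17), *Fdft1* (0.18, SE 0.24) and *Sqle* (0.33, SE 0.15) did not pass, with adjusted p of 0.195, 0.552 and 0.0693 in edgeR.

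The scale mattered for the members near 0. TMM factors set the median of all genes between these 2 classes to -0.06, whereas with library sizes alone, which is the scale of the CPM values, it was 0.31. On that second scale *Sqle* (0.81, SE 0.14) and *Fdft1* (0.66, SE 0.23) passed the test, *Idi1* turned to 0.21 without passing, and the 5 members called under TMM kept their directions. *Hmgcs1*, *Fdps* and *Cyp51* were called lower and *Msmo1* higher under all 11 settings with a test. *Dhcr7* and *Sqle* were each called higher under 9 of them, although *Sqle* did not pass in the main fit. Over all genes, library sizes alone turned the split of calls from 3962 higher and 5043 lower to 5814 and 3059, and DESeq2 gave 4956 and 3686. Oligodendrocyte markers summed to 2637 and 979 CPM in astrocyte-like cells and to 80266 and 73810 CPM in oligodendrocyte-like cells, and their part in the result was not tested.

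The astrocyte-like class joined cells of very different depth, which a finer clustering divided into a shallow cluster (1025 and 558 cells, median 1410 and 1488.5 UMIs) and a deep cluster (278 and 420 cells, median 8611.5 and 7220 UMIs). *Msmo1* had 841 and 889 CPM in the shallow and 1270 and 1179 CPM in the deep cluster. *Fdps* had 119 and 126 against 198 and 185 CPM, and *Idi1* had 145 and 159 against 227 and 255 CPM, so that the 2 clusters did not overlap for these genes. *Cyp51*, with 111 and 146 CPM in the shallow and 97.7 and 163 CPM in the deep cluster, overlapped. The 340 and 103 astrocyte-like cells left out of the thinned shares were all in the shallow cluster. Mitochondrial UMIs made up a median of 8.94% and 13.3% in the shallow and 5.02% and 6.69% in the deep cluster, and no test was run between the clusters.

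**Figure D3:**
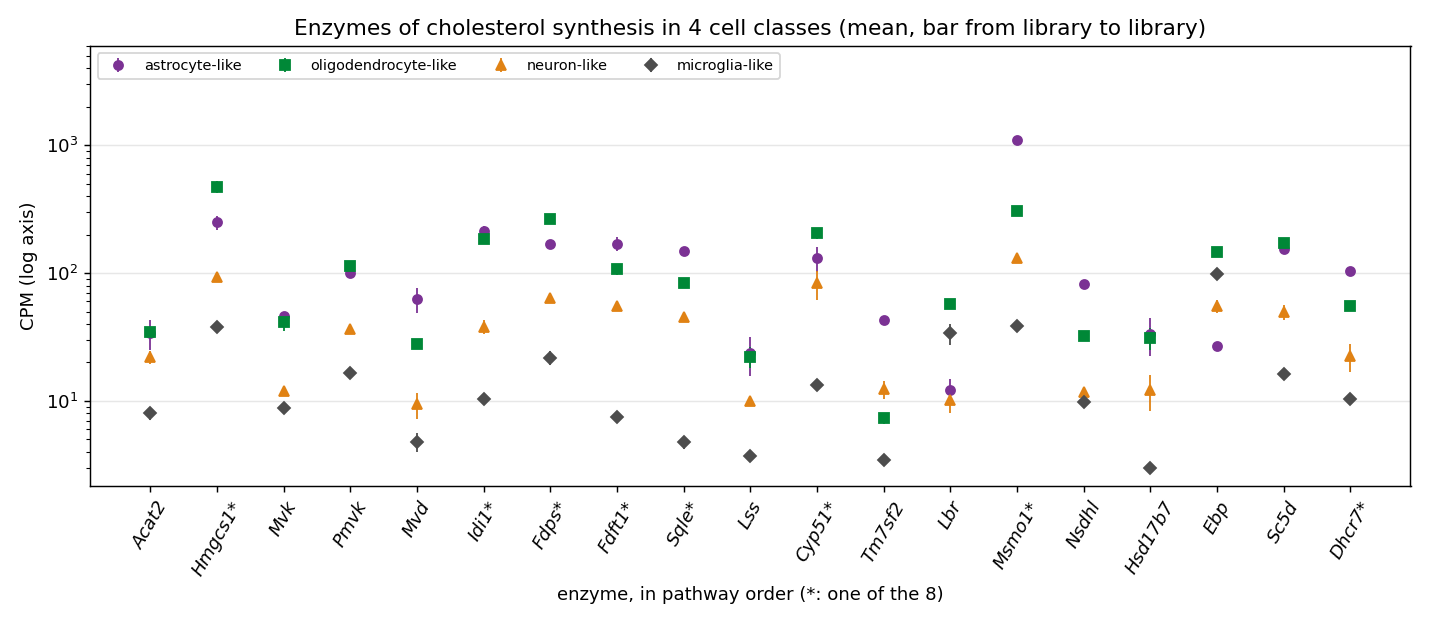
Mean CPM over 2 libraries (y axis, log axis) of enzymes in the order of the synthesis route (x axis, the 8 members starred) in 4 cell classes, with a bar from one library to the other. Within most genes the astrocyte-like and oligodendrocyte-like points stand above the neuron-like and microglia-like points, with *Ebp* and *Lbr* as enzymes whose astrocyte-like point is below the microglia-like one.

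Of the other 13 enzymes of the route, 4 were called higher in astrocyte-like than in oligodendrocyte-like cells, 5 lower and 4 neither, which is near the share over all genes (25.5% higher and 32.5% lower). Those called higher included the sterol reductase *Tm7sf2* (2.01, SE 0.20) and the C4 decarboxylating dehydrogenase *Nsdhl* (0.85, SE 0.15), which acts in the same demethylation as *Msmo1*. The lower calls were led by the sterol isomerase *Ebp* (-2.90, SE 0.16), *Lbr* (-2.69, SE 0.21), a reductase that shares its step with *Tm7sf2*, and *Pmvk* of the mevalonate pathway (-0.69, SE 0.13). The median of the 13 was -0.39. The 2 reductases of one step, *Tm7sf2* and *Lbr*, thus differed between the classes in opposite directions.

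Against the mean of the other classes, 11 of the 13 were called higher in astrocyte-like cells and 2, *Lbr* (-1.75, SE 0.18) and *Ebp* (-1.39, SE 0.13), lower. Over all genes 26.7% were called higher and 26.5% lower there. In oligodendrocyte-like cells all 13 were called higher, with *Sc5d* (2.58, SE 0.08), a desaturase of the last steps, at the top. The shares over all genes were 34.9% higher and 23.8% lower. Against neuron-like cells 11 were higher in astrocyte-like cells, with *Nsdhl* at 3.01 (SE 0.21) and *Mvd*, the mevalonate decarboxylase, at 2.91 (SE 0.30). *Ebp* was lower at -0.73 (SE 0.18), beside 27.1% of all genes called higher and 23.2% lower. With 8 members and these 13 together, no enzyme of the route was lower in oligodendrocyte-like cells than in the mean of the other classes in the main fit. The smallest value of the 13 was 0.46 there. With library sizes alone the median of all genes in this comparison went from -0.04 to -0.50, so that such a small value depends on the scale.

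In OPC-like cells 4 of the 8 members were called higher than the mean of the other classes and none lower, with a member median of 0.40 beside -0.07 over all genes. *Sqle* (1.22, SE 0.12), *Dhcr7* (0.56, SE 0.14), *Cyp51* (0.54, SE 0.17) and *Fdps* (0.50, SE 0.12) were called higher, where the comparison called 26.4% of genes higher and 21.1% lower. *Hmgcs1*, *Idi1*, *Fdft1* and *Msmo1* lay between 0.01 and 0.30 and did not pass. Without library 1 and without library 2 *Hmgcs1* was -0.12 and 0.46, *Msmo1* -0.26 and 0.26, *Idi1* 0.034 and 0.46, *Fdft1* 0.0096 and 0.60, and the called *Fdps* 0.29 and 0.70, so that single libraries set the sign or size of these values. Oligodendrocyte markers summed to 12783 and 8963 CPM in the OPC-like class, above its own OPC markers at 6908 and 7140 CPM, and their part in the result was not tested. The count changed under settings that altered the cells of this class and of the classes in the mean. Of the 827 OPC-like cells, 163 fell in a cluster of newly formed oligodendrocytes when the lineage was clustered by itself. The class held 644 cells at the finer resolution of 0.32, 634 with at least 500 detected genes and 621 with under 20% mitochondrial UMIs. At 0.32, 1049 neuroblast-like cells also lost their name and 149 formed an ependymal-like class. The parts of these changes were not tested.

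With those smaller classes *Sqle* and *Dhcr7* remained higher and *Hmgcs1*, *Idi1*, *Fdft1* and *Msmo1* were called lower. *Hmgcs1* was at -0.81, -0.74 and -0.74 under the 3 settings and *Msmo1* at -0.78, -0.79 and -0.77. Over all genes these settings called 3946, 3846 and 3836 higher. They called 2596 of 14991, 3468 of 15223 and 3444 of 15229 genes lower. *Sqle* was called higher under all 11 settings with a test, at log2 fold changes from 0.57 to 1.61. With library sizes alone in place of TMM all 8 members were called higher, the median of all genes was 0.30 instead of -0.07, and the split of all calls went from 4107 higher and 3285 lower to 6869 and 1724.

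The 3052 oligodendrocyte-like and OPC-like cells were clustered by themselves and named by stage. The OPC stage (301 and 341 cells) is marked by *Pdgfra* and *Cspg4*, the new stage (200 and 168 cells) by genes of cells that have just left the precursor state such as *Bmp4*, and the mature stage (522 and 739 cells) by genes of myelinating cells such as *Klk6* and *Trf*. Median UMIs per cell were 6976 and 7222, 20055 and 20190, and 15831 and 13229 in this order. Not every marker parted the stages. The new and mature stages overlapped for *Mog* (mean 2170 and 2188 CPM), and *Opalin* was higher in the new stage. *Gpr17*, *Neu4* and *Nkx2-2* of the new-stage markers had their highest mean in the OPC stage. Mature markers summed to 15735 and 16854 CPM in the new and 25527 and 24855 CPM in the mature stage. A further cluster of 496 and 249 cells with a median of 18.8% and 27.8% mitochondrial UMIs was left without a name and kept out of the tests.

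From the OPC stage to the new stage all 8 enzymes were higher. *Hmgcs1* had 86.1 and 73.9 CPM in the OPC stage and 655 and 744 CPM in the new stage, a log2 fold change of 3.64 (SE 0.15, adjusted p = 2.8e-11 in the Benjamini-Hochberg adjusted quasi-likelihood test of edgeR). *Idi1* went from 49.8 and 46.3 to 267 and 244 CPM (2.92, SE 0.12), and *Cyp51* from 62.8 and 67.7 to 259 and 334 CPM (2.70, SE 0.12). These sizes depended on the setting. Across 12 settings, the main fit included, *Hmgcs1* ranged from 2.07 to 3.66, *Idi1* from 1.96 to 2.94 and *Cyp51* from 1.71 to 2.72. Each was called higher under all 12. The new stage drew 163 cells from the OPC-like and 205 from the oligodendrocyte-like class. The smallest difference in the main fit was that of *Dhcr7*, with 36.8 and 41.4 against 51.9 and 46.5 CPM (0.85, SE 0.15, adjusted p = 0.00016 in edgeR). *Dhcr7* was the one member whose call was lost, under 3 of 11 alternatives. No member overlapped between the stages. The share of all genes without such overlap was not counted and 58.6% of all genes were called, so that this does not set the members apart. The test called 29.0% of 12570 genes higher and 29.6% lower, and with library sizes alone the split of calls went from 3641 higher and 3722 lower to 1862 and 6658 while 7 members were still called higher.

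The levels of the other 4 were also lower in the OPC than in the new stage. *Fdps* had 98.6 and 86.4 against 388 and 344 CPM, and *Msmo1* had 102 and 83.7 against 354 and 338 CPM. *Fdft1* had 34.8 and 27.2 against 132 and 134 CPM. *Sqle*, at 63.8 and 53.9 against 132 and 121 CPM, was with *Dhcr7* the member that differed least (1.63, SE 0.15).

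Against the mature stage, 5 members were called higher in the new stage, while the test called 19.5% of genes higher and 19.5% lower. *Cyp51* had 139 and 173 CPM in the mature stage (log2 fold change 0.74, SE 0.10), *Hmgcs1* 347 and 446 CPM (0.64, SE 0.12), and *Sqle* 63.8 and 80.4 CPM (0.62, SE 0.13). *Idi1* had 164 and 166 CPM (0.44, SE 0.10) and *Fdps* 234 and 249 CPM (0.41, SE 0.11). Adjusted p of these 5 ranged from 3.9e-05 to 0.0070 in the Benjamini-Hochberg adjusted quasi-likelihood test of edgeR. *Fdft1* (0.22), *Msmo1* (0.14) and *Dhcr7* (-0.28) did not pass. Without library 1 the value of *Sqle* was 0.39 and without library 2 it was 0.88.

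This comparison turned with the way the stages were divided. At a lineage resolution of 0.4 the new stage was a cluster led by *Bmp4* alone (93 and 67 cells) and the cluster led by *Ctps* (106 and 101 cells) counted as mature, and 6 members were then called lower in the new stage, *Hmgcs1* at -1.27 and *Idi1* at -0.75. With doublets kept, the mature stage held only 149 cells led by *Klk6*, and 5 members were called lower, *Hmgcs1* at -0.29. Over all genes, 2721 were called higher and 2893 lower of 11717 at 0.4. With doublets kept these counts were 2262 and 2135 of 11776. The split of all calls with library sizes alone was 3451 higher and 1532 lower, against 2446 and 2453 with TMM.

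**Figure D4:**
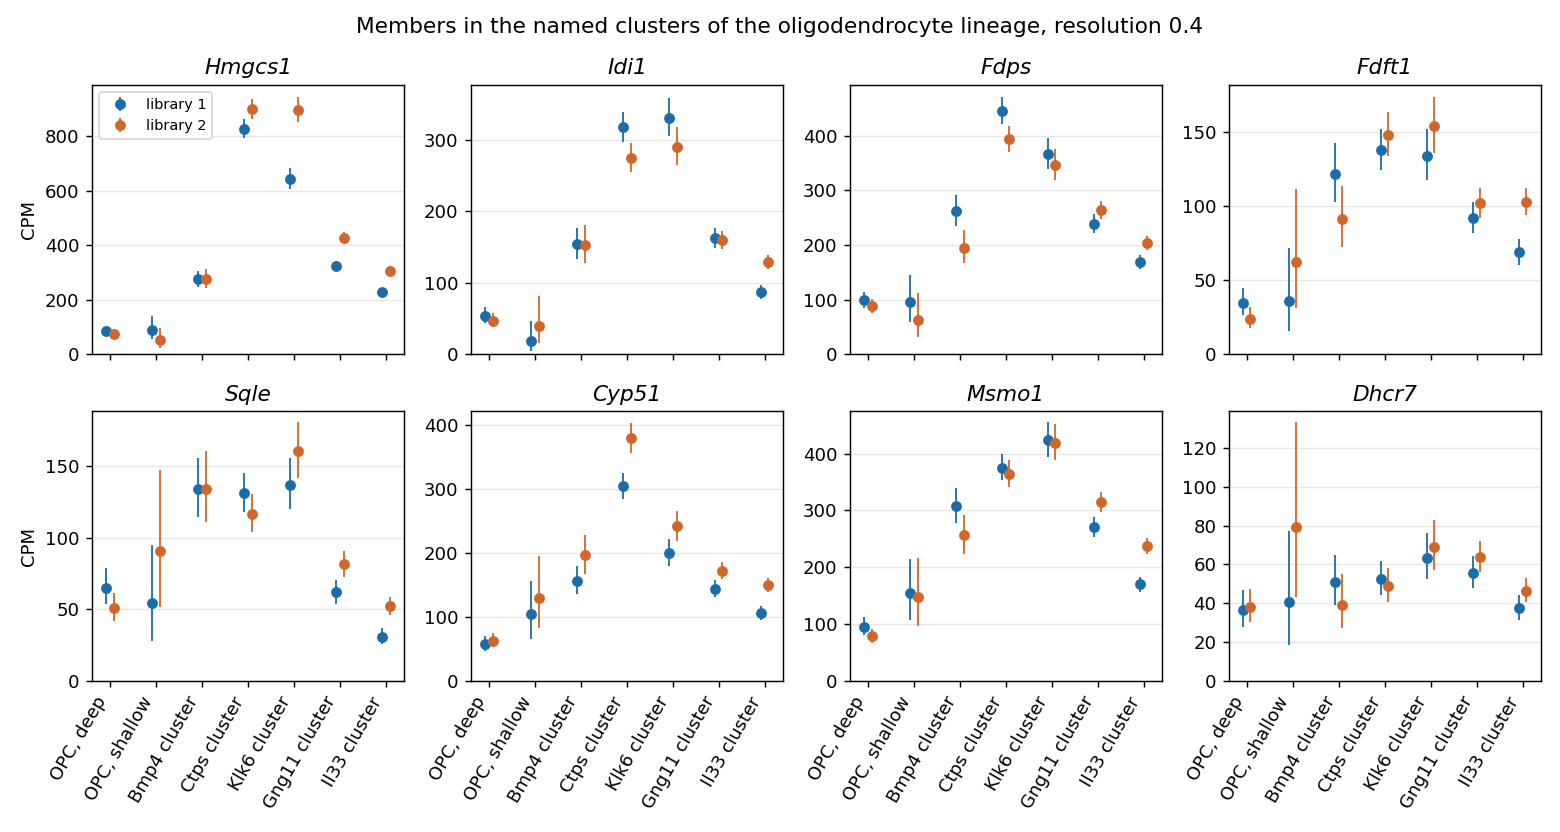
Level of each member (y axis, CPM) in 7 named clusters of the oligodendrocyte lineage at resolution 0.4 (x axis, from OPC to mature, clusters called by a leading gene), with a point per library and a bar for its 95% Poisson interval. In the *Hmgcs1* panel both libraries of the Ctps cluster and of the Klk6 cluster stand above those of the other named clusters.

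Levels also differed between the finer clusters of the lineage. *Hmgcs1* had 85.7 and 75.8 CPM in the deep OPC cluster, 275 and 276 CPM in the Bmp4 cluster, and 827 and 899 CPM in the Ctps cluster. The Klk6 cluster (69 and 77 cells) had 644 and 895 CPM, and the 2 larger mature clusters, led by *Gng11* and *Il33*, had 324 and 426 and 229 and 307 CPM. For *Hmgcs1* the Ctps and Klk6 clusters were therefore highest in both libraries, with the Bmp4 cluster between the OPC clusters and them, but this order did not hold for every member.

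*Idi1* was also highest in these clusters, with 317 and 275 CPM in the Ctps and 331 and 290 CPM in the Klk6 cluster. *Fdps* had 445 and 394 CPM in the Ctps cluster, its highest. *Sqle* was higher in the Bmp4 cluster, at 134 and 134 CPM, than in the Ctps cluster, at 131 and 116 CPM. A cluster with many mitochondrial UMIs, left without a name and out of the plot by cluster, held the highest mean of *Cyp51* and *Dhcr7*. *Cyp51* had 269 and 463 CPM there against 305 and 379 CPM in the Ctps cluster, and the libraries overlapped. *Dhcr7* had 77.4 and 115 CPM there against 63.4 to 69.1 CPM in the Klk6 cluster. Its mean in the Bmp4 cluster was 45.0 CPM, beside 60.1 CPM in the shallow and 37.3 CPM in the deep OPC cluster. The shallow value rests on 9 and 14 UMIs. Its libraries, at 40.8 and 79.3 CPM, overlapped with those of the Bmp4 cluster, at 50.8 and 39.2 CPM. *Msmo1* had 424 and 420 CPM in the Klk6 cluster and 367 and 474 CPM in the unnamed cluster, which overlapped. These are levels with no test, and the Ctps cluster was also the deepest, with medians of 25746 and 25515 UMIs per cell against 14295 and 12904 in the Bmp4 cluster.

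Of the other 13 enzymes, 12 were called higher in the new than in the OPC stage, among them *Mvd* (2.43, SE 0.17) and *Sc5d* (2.18, SE 0.13), beside 29.0% of all genes. Against the mature stage 9 were higher, beside 19.5% of all genes, led by *Mvd* (1.62, SE 0.13) and *Tm7sf2* (1.28, SE 0.27), and *Lbr* (-0.68, SE 0.12) and *Ebp* (-0.45, SE 0.11) were lower. *Tm7sf2* turned to -0.50 at the lineage resolution of 0.4.

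Of 9 genes of sterol sensing and the response to it, 5 were called higher in astrocyte-like cells than in the mean of the others. *Srebf1*, the sterol regulatory element binding protein best known for fatty acid genes, was at 2.88 (SE 0.14). *Insig1*, which retains the precursor in the endoplasmic reticulum, was at 2.31 (SE 0.18). The protease *Mbtps1* was the 1 called lower (-0.87, SE 0.17), beside 26.7% higher and 26.5% lower over all genes. In oligodendrocyte-like cells 6 were higher, with *Insig1* at 2.30 (SE 0.18) and *Srebf2*, the form best known for cholesterol genes, at 1.24 (SE 0.12), and *Nr1h3*, a liver X receptor, was lower (-1.61, SE 0.43), beside 34.9% and 23.8% of all genes. In OPC-like cells 5 of the 9 were called lower, beside 21.1% of all genes. Between astrocyte-like and oligodendrocyte-like cells *Nr1h3* was higher in astrocyte-like cells (2.69, SE 0.43) and its paralogue *Nr1h2* lower (-0.85, SE 0.18). From OPC to new stage *Insig1* (2.09, SE 0.14) and *Srebf2* (1.06, SE 0.15) were among 3 called higher of the 8 tested there. That is near the share over all genes (29.0%). In the new stage *Srebf1* was lower than in the mature stage (-1.54, SE 0.19).

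Of 11 genes of cholesterol uptake, storage and export, 6 were higher in astrocyte-like than in oligodendrocyte-like cells, led by the lipoprotein receptor *Lrp1* (4.65, SE 0.30), apolipoprotein E (*Apoe*, 4.21, SE 0.42) and the esterifying enzyme *Soat1* (3.76, SE 0.18). Another 3 were lower, the exporter *Abcg1* (-5.24, SE 0.34) and the lysosomal carriers *Npc2* (-1.30, SE 0.15) and *Npc1* (-1.15, SE 0.16). Over all genes 25.5% were higher and 32.5% lower, so that the count of lower calls was not above that share.

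The isoprenoid branches draw on farnesyl diphosphate and its precursors for other products. Of 8 genes, 2 were higher in astrocyte-like cells than in the mean of the others, *Pdss1* (0.73, SE 0.21) and *Pdss2* (0.44, SE 0.15) of ubiquinone synthesis, and 4 were lower, while 26.7% of all genes were higher and 26.5% lower. In oligodendrocyte-like cells 5 were higher, led by the farnesyltransferase subunits *Fntb* (1.81, SE 0.18) and *Fnta* (1.77, SE 0.08), and the prenyltransferase subunit *Pggt1b* was lower (-0.34, SE 0.14), beside 34.9% and 23.8% of all genes.

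Fatty acid synthesis is under the related arm of the same regulators. In astrocyte-like cells 8 of 9 genes were called higher than in the mean of the others, beside 26.7% of all genes, led by the desaturase *Fads2* (4.01, SE 0.17), and the list median was 1.72. In oligodendrocyte-like cells 7 were called higher, led by the desaturases *Scd1* (3.78, SE 0.20) and *Scd2* (3.72, SE 0.16), and *Fads2* (-1.95, SE 0.29) and *Fads1* (-0.38, SE 0.13) were called lower, beside 34.9% and 23.8% of all genes. Between the 2 classes the desaturases parted, with *Fads2* (5.29, SE 0.30) and *Fads1* (1.88, SE 0.16) higher in astrocyte-like cells and the elongase *Elovl6* (-2.10, SE 0.29), *Scd2* (-1.90, SE 0.28) and *Scd1* (-1.83, SE 0.31) lower.

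*Crym*, which encodes μ-crystallin, marks a population of striatal astrocytes that the study set out to characterise, and the members were compared between *Crym*+ and *Crym*- astrocyte-like cells. All 8 were lower in *Crym*+ cells in both libraries on the CPM scale, but only *Cyp51* passed the test. The share of all genes lower in both libraries was not counted. In the main fit the member median was -0.26, beside -0.002 over all genes tested. *Cyp51* had 123 and 183 CPM in *Crym*- cells and 83.4 and 141 CPM in *Crym*+ cells, a difference within each library although the groups overlapped across libraries, and its log2 fold change was -0.49 (SE 0.10, adjusted p = 0.047 in the Benjamini-Hochberg adjusted quasi-likelihood test of edgeR). *Msmo1* had 1188 and 1223 CPM in *Crym*- and 1012 and 1025 CPM in *Crym*+ cells (-0.27, SE 0.07, adjusted p = 0.096 in edgeR). *Sqle* had 153 and 182 against 124 and 138 CPM (-0.38, SE 0.09, adjusted p = 0.089 in edgeR).

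The remaining members ranged from -0.36 for *Dhcr7* to -0.16 for *Fdps* and *Fdft1*. At an unadjusted p under 0.05, 5 of the 8 passed, as did 1257 of all 6046 genes tested. The test called 0.959% of 6046 genes higher and 1.44% lower in *Crym*+ cells.

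*Crym*+ cells (500 and 435) were deeper than *Crym*- cells (804 and 543), with medians of 2462 and 5218 against 1475 and 1963 UMIs. *Crym*- cells held 0 *Crym* UMIs, and whether shallow cells missed the transcript was not tested. The deep astrocyte-like cluster had 1343 and 1582 CPM of *Crym*, against 841 and 889 CPM in the shallow one. By mean CPM all 8 members were also higher in the deep cluster, with overlap for *Cyp51*. The part of depth in the result was not tested beyond thinning, under which *Idi1* and *Fdps* turned to 0.016 and 0.15. The value of *Cyp51* ranged from -0.50 to -0.12 across 11 settings with a test, and it was called lower under 8 of them. Without the library block no member passed in edgeR, with 0 of 8 at an unadjusted p under 0.05, and in DESeq2 none passed, with 2 of 8 at an unadjusted p under 0.05.

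**Figure D5:**
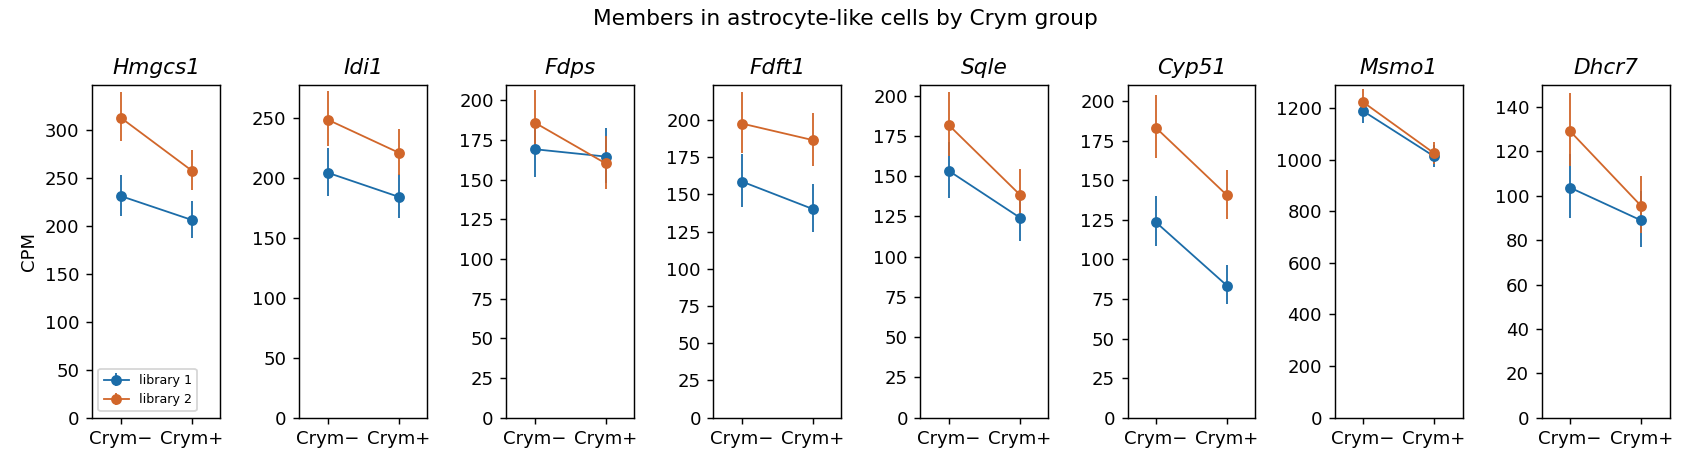
Level of each member (y axis, CPM, from 0) in *Crym*- and *Crym*+ astrocyte-like cells (x axis), with a line joining the 2 groups of a library and bars for 95% Poisson intervals. Every line falls from *Crym*- to *Crym*+, that of *Fdps* in library 1 only from 169 to 164 CPM, and the share of all genes that fall in both libraries was not counted.

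The members followed each other across the 18 sums of 9 classes and 2 libraries. Pearson's r between pairs of members, on log2(CPM + 10), ran from 0.76 to 0.96 with a median of 0.90 over 28 pairs. Sums of one library share its preparation and depth and sums of one class share its cells, so that these values describe the pattern and were not tested. Each member was correlated with the mean of all 8 at 0.92 (*Msmo1*) to 0.97 (*Sqle*). That mean includes the member itself, which raises these values.

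Outside the lists, the 10 genes of 15479 nearest to the mean pattern of the members were *4933431E20Rik* (r = 0.98), *4930402H24Rik* and *Fbxo2* (both 0.97), *Fabp5*, *Igsf11*, *Gstm5*, *Paxx*, *Shisa4*, *Arnt2* and *Cntfr* (0.93 to 0.94). *Fabp5* encodes a fatty acid binding protein and *Cntfr* a receptor of ciliary neurotrophic factor. Within the related lists, fatty acid synthase (*Fasn*) reached 0.97, *Hsd17b7* 0.95, acetyl-CoA carboxylase (*Acaca*) 0.95, lanosterol synthase (*Lss*) 0.94 and *Insig1* 0.93. Enzymes of the same route were not all near the pattern, since *Ebp* was at -0.25 and *Lbr* at -0.32.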

How the data were processed

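The authors deposited raw UMI counts per gene and barcode for 2 libraries, made with Cell Ranger on the mouse genome mm10 (version 4.0 per the submitters' processing notes, while the methods of the study give an earlier one), with no normalization. Doublet removal and cell annotation were rerun here. Cells with at least 300 detected genes were kept, and 81 and 158 doublets were marked by Scrublet (scanpy 1.11.5, doublet rate set to 6%) and removed. Seurat 5.3.0 integrated the libraries by canonical correlation analysis on 2000 variable genes and clustered on 30 principal components at resolution 0.08, without 59 genes (the members, the related lists and *Crym*). A name needed at least 3 markers raised 2-fold with 10 CPM added, and 1 of them among the 50 genes of largest fold. The lineage was clustered at 0.2. *Crym*+ cells had a natural log value above 0.25.

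Counts were summed per library and class with at least 20 cells and fitted in edgeR 4.0.16 (TMM, filterByExpr, quasi-likelihood test, library as a block, prior count of 2), with Benjamini-Hochberg adjustment over all genes. The block was part of the design because all classes of a library were captured together. For the *Crym* comparison, genes detected in at least 10% of either group were tested. On simulated counts the class fit recovered 95% of 4-fold and 60% of 2-fold changes among 15537 genes, with 14 false calls. The simulated classes shared a single profile, with 200 genes changed in a single class, up and down alike. It therefore gives no error rate for the real comparisons, where far more genes were called. DESeq2 1.42.0 was an alternative.

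The members, lists, markers and tests were chosen with earlier results of these data known. All 8 members were named in each comparison, and of each other list up to 3 called genes with the largest change in each direction. Precision rests on 2 libraries, and levels carry 95% Poisson intervals of counting error. The paper's other assays were not analysed here. Some genes of the related lists are counted with their list but not reported here by name.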

Additional observations from a re-analysis of the deposited data

How the results depend on the processing

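Each comparison was refitted under 10 or 11 alternatives with a test. All member values kept their direction and call against the mean of the other classes in astrocyte-like and in oligodendrocyte-like cells and against neuron-like cells. Leaving out either library gave values with no test.

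In astrocyte-like against oligodendrocyte-like cells *Idi1* turned from -0.27 to 0.041 (DESeq2), 0.21 (library sizes alone), 0.014 (resolution 0.32), 0.030 (at least 500 genes), 0.0051 (under 20% mitochondrial UMIs) and 0.16 (thinned). *Sqle*, not called in the main fit, was called higher under 9 of the 11 settings with a test.

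In OPC-like cells 4 members were called higher, but 8 with library sizes alone, 2 when thinned, and 6 (2 higher, 4 lower) at resolution 0.32, at least 500 genes or under 20% mitochondrial UMIs. Under the last 3 in this order the values were -0.81, -0.74 and -0.74 for *Hmgcs1*, -0.62, -0.58 and -0.59 for *Idi1*, -0.14, -0.18 and -0.20 for *Fdps*, -0.73, -0.62 and -0.61 for *Fdft1*, -0.11, -0.13 and -0.085 for *Cyp51*, and -0.78, -0.79 and -0.77 for *Msmo1*. Thinned, *Hmgcs1* was -0.14, *Idi1* -0.43, *Fdft1* -0.058 and *Msmo1* -0.078. *Msmo1* was -0.043 with no filter and -0.053 with doublets kept. *Lbr* was 0.063 at resolution 0.32. The smaller classes leave out cells that the lineage clustering put in the new stage, and the classes in the mean changed too. The cause was not tested further.

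In the new against the mature stage 5 members were higher, but 5 lower with doublets kept and 6 lower at lineage resolution 0.4, where the stages hold other cells. Under these 2 settings 2135 of 11776 and 2893 of 11717 genes were called lower. The values with doublets kept and at 0.4 were -0.29 and -1.27 for *Hmgcs1*, -0.44 and -0.75 for *Idi1*, -0.13 and -0.71 for *Fdps*, -0.24 and -0.45 for *Fdft1*, and -0.44 and -0.49 for *Msmo1*. With doublets kept *Sqle* was -0.36, *Insig1* 0.14 and *Apoe* 0.90. At 0.4 *Cyp51* was -0.57, *Tm7sf2* -0.50, *Cyp46a1* -0.031, *Elovl6* -0.79, and in the new against the OPC stage *Scd1* was -1.52.

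In *Crym*+ against *Crym*- cells 1 member was called in edgeR, but 0 in DESeq2 (2 at an unadjusted p under 0.05), 0 with no replicate block (0 unadjusted), 4 with doublets kept, 4 with at least 500 genes and 2 under 20% mitochondrial UMIs. Thinned, *Idi1* was 0.016 and *Fdps* 0.15. Calls over all genes went from 145 to 1 without the block, 51 in DESeq2, 279 with library sizes alone, 246 without mitochondrial genes, 677 with no filter, 251 at resolution 0.32, 489 with doublets kept, 700 with at least 500 genes and 300 under 20% mitochondrial UMIs. The share called was 2.4% of 6046 genes in the main fit and 2.34% of the 2177 genes with an adjusted p in DESeq2. With no filter it was 3.62% of 18723 genes. Thinned, calls rose to 199 of 1544 genes (12.9%). In no other comparison did dropping the block move the count of members by over 1.5 times.

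Over all genes the 4899 calls of the new against the mature stage became 2798 in DESeq2 and 3148 without the block. Thinning, which leaves fewer genes to test, took the calls from 9005 to 4677 (astrocyte-like against oligodendrocyte-like), 8269 to 4109 (astrocyte-like against the mean, 2630 higher and 1479 lower), 9119 to 4437 (oligodendrocyte-like), 7392 to 3242 (OPC-like, 2173 higher and 1069 lower), 7818 to 3750 (astrocyte-like against neuron-like), 4899 to 1422 (new against mature) and 7363 to 2374 (new against OPC stage).

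Shares of cells without thinning in place of 1000 UMIs were, for any member, 86.2% (astrocyte-like), 95.1% (oligodendrocyte-like), 87.1% (OPC-like), 68.0% (neuron-like) and 53.5% (microglia-like), for *Msmo1* 69.0%, 75.7% and 19.3% (astrocyte-like, oligodendrocyte-like, microglia-like), and for *Hmgcs1* 41.3%, 71.6% and 19.5%. With 2 libraries the tests lean on a spread shared between genes, and thinned sums hold few UMIs of low genes.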
